A study of Mus musculus with 14 samples.

Results

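Mouse C2C12 myoblasts, an established line, were brought back from quiescence while they expressed a short hairpin RNA against Foxm1 (shFoxM1). RNA sequencing gave 4 libraries of quiescent and 4 of activated shFoxM1 cells, 8 of the 14 libraries of the series. The other 6 came from cells with a control hairpin (shControl), 3 in each state, and serve as reference levels. Quiescence was imposed on all quiescent groups by suspending trypsinised cells in medium thickened with 1.5% methylcellulose and holding 20% serum, and growing cells were kept in 10% serum. The labels do not say how cells were activated or for how long, which sequence the hairpins carried, or whether libraries came from separate cultures. The design text speaks of triplicates, whereas the labels give 4 libraries in each shFoxM1 state, so p-values measure the spread between these libraries only. The 8 libraries were chosen by their labels, and a gene was tested when it reached 1 FPKM (fragments per kilobase of transcript, scaled to the total fragments of the library) in at least 3 of them, which held for 12086 of 49585 genes.

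Foxm1 is a transcription factor of dividing cells that acts late in the cell cycle with the MuvB complex and Mybl2, mostly at genes of mitosis that carry a short promoter element known as the CHR. Genes of DNA replication are controlled earlier in the cycle by the E2F factors, which the pocket proteins Rb1, Rbl1 and Rbl2 hold in check. Myoblasts are the dividing precursors of skeletal muscle, and the transcription factors Myf5 and Myod1 mark them. A myoblast that leaves the cycle may rest reversibly or turn on Myog, fuse and build sarcomeres.

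Foxm1 was detected in all libraries labelled shFoxM1. It stood at 9.95, 6.61, 8 and 15.6 FPKM in quiescent libraries 1 to 4, and at 14.5, 14.7, 27.6 and 11.2 FPKM in activated libraries 1 to 4. The groups overlapped, since quiescent library 4 was above 3 of the 4 activated libraries. The log2 fold change (activated minus quiescent, on log2(FPKM + 1), ± standard error) was 0.69 ± 0.29 and did not pass the test (limma adjusted p = 0.10, exact two-sided permutation p = 0.114). Without quiescent library 4 it was 0.91 and passed (adjusted p = 0.0245). A lower Foxm1 level than in shControl cells was not evident in quiescent library 4, which lay within the quiescent shControl range of 10.01 to 23.9 FPKM, whereas the other 3 quiescent libraries lay below it. All 4 activated libraries lay below the activated shControl range of 34.9 to 37.1 FPKM. In shControl cells Foxm1 was at 15.5 ± 7.34 FPKM in quiescence and 35.8 ± 1.13 FPKM after activation (SD, n = 3), and the difference between both responses, -0.55 ± 0.45, did not pass (unadjusted p = 0.241).

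The 8 libraries separated by state on the first principal component of the genes tested, which carried 54.0% of the variance. Quiescent library 4 stood apart on the second component (19.6% of the variance, with loadings correlated with GC content at a Spearman rho of -0.700 across genes), and activated library 4 lay on the same side. Mitochondrial genes made up 5.51% of protein-coding FPKM in quiescent library 4 and 11.4 to 16.5% in the other quiescent libraries, against 6.19 to 9.06% in activated libraries. The median within-group SD of log2 values was 0.254 in quiescent and 0.214 in activated cells, and 0.166 and 0.155 without libraries 4. Depth, estimated from the steps of low values, was 2.64e+07 to 3.61e+07 reads. Myoblast markers were present throughout, with a summed level of 355 to 515 FPKM for 9 markers in quiescent and 199 to 304 FPKM in activated libraries. Of those 9 markers 0 rose and 6 fell. The satellite cell factor Pax7 was near 0 in both states.

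**Figure D1:**
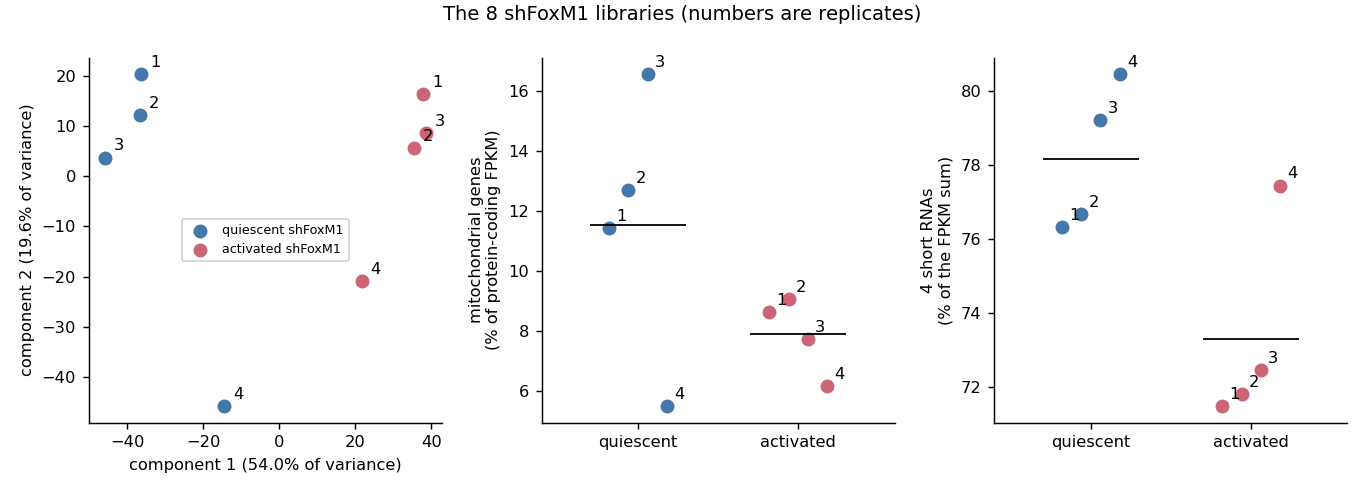
Left, the 8 shFoxM1 libraries on the first and second principal components of log2(FPKM + 1), with replicate numbers. Middle and right, the share of protein-coding FPKM from mitochondrial genes and the share of each library's FPKM sum from 4 short RNAs (%), with a line at each group mean. Quiescent library 4 has the lowest mitochondrial share (5.51%) and the highest short RNA share (80.5%).

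Between quiescent and activated cells 3466 of the 12086 genes differed, 28.7% (limma, Benjamini-Hochberg adjusted p below 0.05). Of these 2139 were higher in activated cells, 17.7% of the genes tested, and 1327 were lower, 11.0%. Large changes were mostly decreases, with 94 genes at least 4-fold lower against 15 at least 4-fold higher, and 27 at least 8-fold lower against 1 higher. At 2-fold or more the directions were even, with 540 genes higher (4.47%) and 523 lower (4.33%). In 3384 genes, 28.0%, the 4 activated and the 4 quiescent libraries did not overlap. Without quiescent library 4 the count was 5018 (2595 higher, 2423 lower), and without both libraries 4 it was 5719. Leaving out quiescent library 3, activated library 1 or activated library 2 lowered it to 2228, 2171 and 2158. The split by direction depended on the scaling: 61.7% of called genes were higher as deposited, 73.1% with equal FPKM sums, 50.4% with median-of-ratios scaling and 26.7% with equal sums over nuclear protein-coding genes. The last of these moved the median of all genes from a log2 change of 0.03 to -0.24, so small increases are relative to the deposited scale.

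**Figure D2:**
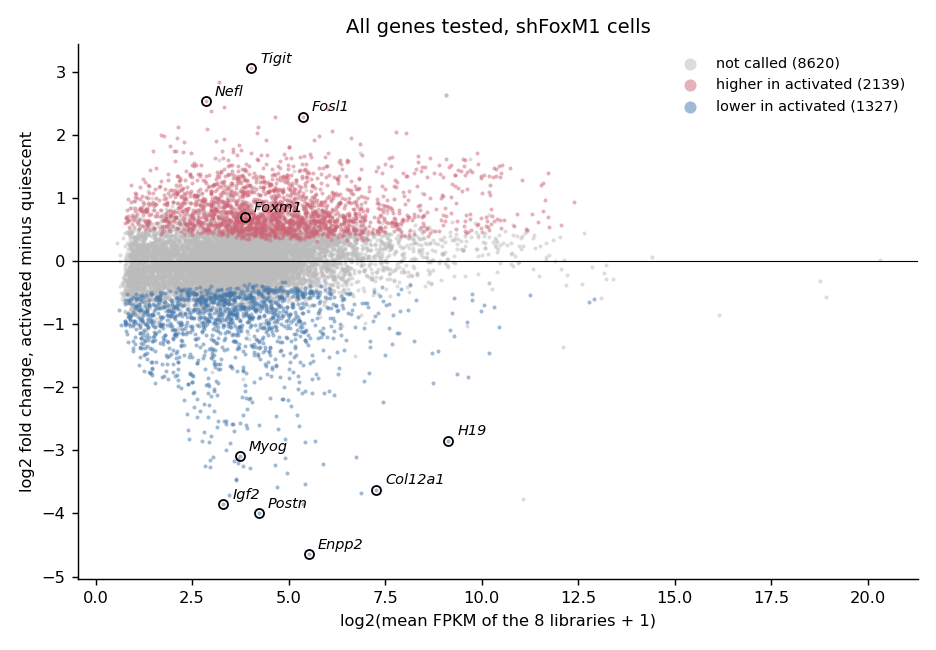
Log2 fold change (activated minus quiescent) against log2 of the mean FPKM + 1 for the 12086 genes tested in shFoxM1 cells, with 2139 called higher, 1327 called lower and 8620 not called. The decreases reach further from 0 than the increases, down to Enpp2 at -4.65, and Foxm1 itself is not called.

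Genes of mitosis and of DNA replication were higher in activated shFoxM1 cells almost as whole lists. Of 50 genes of the G2 and M phases, all measured, 46 rose and 0 fell (median log2 change 1.24), and of 48 replication genes 45 rose and 0 fell (median 1.26), against a background of 17.7% of all genes higher. With equal protein-coding sums the risers were 38 and 40. In the lists that follow, counts of 1 or 2 genes were often lost when 1 library was left out. The cyclin Ccnb1, which drives entry into mitosis, went from 24.9, 22.7, 15.4 and 29.1 FPKM to 74.93, 69.96, 66.99 and 41.9 FPKM (1.42 ± 0.22, adjusted p = 0.00226). The groups did not overlap, and activated library 4 was the lowest of its group. Aurka, a spindle kinase, rose by 1.63 ± 0.24, Plk1, a mitotic kinase, by 1.45 ± 0.28, and Ube2c, a ubiquitin enzyme that works with the anaphase-promoting complex, by 1.68 ± 0.26. Mki67, the proliferation marker, stood at 0.97 ± 0.37 and did not pass (adjusted p = 0.0745, exact permutation p = 0.143). It passed without quiescent library 1 (1.23, adjusted p = 0.0327) and without activated library 4 (1.25, adjusted p = 0.0241).

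Within replication, the licensing and fork factors moved with the enzymes that supply nucleotides. Mcm10, which helps to fire origins, was at 5.69, 4.91, 2.57 and 4.4 FPKM in quiescent and at 16.9, 16.6, 13.9 and 12.8 FPKM in activated libraries (1.6 ± 0.20, adjusted p = 9.0e-04). Every activated library was above every quiescent one. Rrm2, the regulated subunit of ribonucleotide reductase, rose by 1.85 ± 0.28, Mcm3 by 1.67 ± 0.27 and Mcm5 by 1.69 ± 0.31, the last pair being subunits of the replicative helicase. Among 25 genes of homologous recombination and checkpoints 19 rose and 0 fell, among them the nuclease Exo1 (1.63 ± 0.23). That count was 11 without activated library 1 or without activated library 2, and 12 with equal protein-coding sums.

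Promoter windows of members of both lists and of muscle genes are shown to give the short elements that are known from cell cycle and muscle promoters. Each window runs from 250 bases before to 50 bases after the annotated start (RefSeq, GRCm38.p6), on the strand of the gene. In the windows of the mitotic genes Aurka (chr2:172370521-172370820, minus strand), Plk1 (chr7:122159185-122159484, plus strand) and Cdc20 (chr4:118437294-118437593, minus strand), capitals mark the CHR (TTTGAA or TTCGAA) and the CCAAT box (CCAAT), on either strand.
Aurka: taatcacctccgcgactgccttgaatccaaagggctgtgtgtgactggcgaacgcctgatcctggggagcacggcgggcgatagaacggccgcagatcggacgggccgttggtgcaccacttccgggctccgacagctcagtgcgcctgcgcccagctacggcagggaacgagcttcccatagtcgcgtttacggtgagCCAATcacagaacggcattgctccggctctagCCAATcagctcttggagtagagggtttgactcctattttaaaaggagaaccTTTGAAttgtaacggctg
Plk1: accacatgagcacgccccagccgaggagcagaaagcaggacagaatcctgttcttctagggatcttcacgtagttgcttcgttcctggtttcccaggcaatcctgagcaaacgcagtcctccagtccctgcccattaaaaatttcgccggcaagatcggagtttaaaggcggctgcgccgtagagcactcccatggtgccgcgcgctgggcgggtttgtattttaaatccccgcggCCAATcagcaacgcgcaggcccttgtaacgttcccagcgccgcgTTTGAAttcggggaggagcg
Cdc20: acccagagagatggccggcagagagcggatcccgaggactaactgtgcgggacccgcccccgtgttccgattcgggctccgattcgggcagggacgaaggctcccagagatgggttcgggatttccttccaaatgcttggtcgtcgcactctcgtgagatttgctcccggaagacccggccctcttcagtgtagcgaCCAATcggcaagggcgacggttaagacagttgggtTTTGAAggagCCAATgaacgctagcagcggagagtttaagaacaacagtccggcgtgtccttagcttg
In the windows of the helicase genes Mcm3 (chr1:20820263-20820562, minus strand) and Mcm5 (chr8:75109259-75109558, plus strand), capitals mark E2F motifs (TTTCCCGC, TTTGGCGC, TTTCGCGC or TTTGCCGC) on either strand. In Mcm5 a pair of them overlaps.
Mcm3: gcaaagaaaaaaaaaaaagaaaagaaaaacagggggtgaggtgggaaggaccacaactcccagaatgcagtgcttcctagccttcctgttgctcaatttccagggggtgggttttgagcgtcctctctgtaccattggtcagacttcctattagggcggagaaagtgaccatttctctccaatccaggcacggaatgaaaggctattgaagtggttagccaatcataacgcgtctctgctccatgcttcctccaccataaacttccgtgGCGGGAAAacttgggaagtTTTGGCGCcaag
Mcm5: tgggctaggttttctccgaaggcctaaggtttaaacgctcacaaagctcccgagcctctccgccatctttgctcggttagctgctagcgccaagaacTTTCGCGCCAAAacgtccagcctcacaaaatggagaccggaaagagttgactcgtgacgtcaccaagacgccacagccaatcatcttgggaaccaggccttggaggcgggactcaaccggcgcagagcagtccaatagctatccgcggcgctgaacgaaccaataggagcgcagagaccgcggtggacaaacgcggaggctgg
In the windows of the acetylcholine receptor gene Chrng (chr1:87205561-87205860, plus strand) and the fast myosin light chain gene Mylpf (chr7:127211358-127211657, plus strand), capitals mark the E-box CAGCTG, a motif bound by Myod1 and Myog.
Chrng: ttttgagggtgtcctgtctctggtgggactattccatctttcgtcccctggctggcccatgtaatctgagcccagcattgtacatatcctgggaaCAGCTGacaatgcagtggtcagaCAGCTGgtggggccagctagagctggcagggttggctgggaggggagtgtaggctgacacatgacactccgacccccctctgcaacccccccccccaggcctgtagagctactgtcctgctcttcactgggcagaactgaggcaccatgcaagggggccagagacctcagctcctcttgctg
Mylpf: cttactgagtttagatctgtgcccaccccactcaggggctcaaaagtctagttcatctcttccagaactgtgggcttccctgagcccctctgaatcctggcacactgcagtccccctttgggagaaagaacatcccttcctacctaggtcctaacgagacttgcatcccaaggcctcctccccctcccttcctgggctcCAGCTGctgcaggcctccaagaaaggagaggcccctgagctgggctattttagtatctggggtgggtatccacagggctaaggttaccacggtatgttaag
Over whole lists, a CHR was found in 80.0% of the 45 windows that matched 42 of the 50 G2 and M phase genes, in 22.7% of 44 windows of replication genes, in 10.9% of 46 windows of sarcomere, acetylcholine receptor and fusion genes, and in 19.2% of all 32851 windows. An E2F motif was in 6.67%, 31.8%, 0.0% and 2.26% of the same sets, and the E-box in 15.6%, 11.4%, 37.0% and 16.3%. A CCAAT box was in 80.0%, 50%, 34.8% and 37.4%. A match describes the letters of the window and does not show that a factor binds there.

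The switches of the cycle moved in both directions. Ccnd1, the D-type cyclin that responds to growth factors, was at 32.4, 38.9, 29.4 and 58.1 FPKM in quiescent and at 179, 140, 179 and 114 FPKM in activated libraries (1.94 ± 0.22, adjusted p = 6.0e-04). It had the smallest adjusted p among 12 cyclins and kinases of G1 and S, of which 9 rose and 0 fell. Ccne1 rose by 1.54 ± 0.27 and Ccnd2 by 1.09 ± 0.20. Cdkn1b, the inhibitor p27 of resting cells, fell from 38.7, 39.6, 50.3 and 30.3 FPKM to 19.8, 25.98, 19.45 and 19.8 FPKM (-0.86 ± 0.17, adjusted p = 0.00514). Cdkn1a, the inhibitor p21, overlapped between the groups (0.20 ± 0.31, adjusted p = 0.669, or -0.11 with equal protein-coding sums), and Cdkn1c stayed below 1 FPKM in all 8 libraries.

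Of 20 E2F, pocket protein and MuvB genes 11 rose and 1 fell. Mybl2, the partner of Foxm1 at mitotic promoters, rose from 4.70 ± 2.18 to 17.0 ± 3.24 FPKM (1.73 ± 0.28), E2f1 by 0.76 ± 0.17, and the repressors E2f7 and E2f8 by 1.31 ± 0.31 and 1.20 ± 0.27. Rbl2, the pocket protein of quiescent cells, was the member that fell (-0.73 ± 0.18), from 12.4 to 19.8 FPKM in quiescent libraries to 7.78 to 11.97 FPKM in activated ones. Rb1 did not pass (-0.50 ± 0.22, adjusted p = 0.116). With equal protein-coding sums 5 members of this list and 5 of the G1 and S list were higher. Without activated library 1 or activated library 2 the count of E2F, pocket protein and MuvB genes that rose was 7, and without quiescent library 4 the count that fell was 3.

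**Figure D3:**
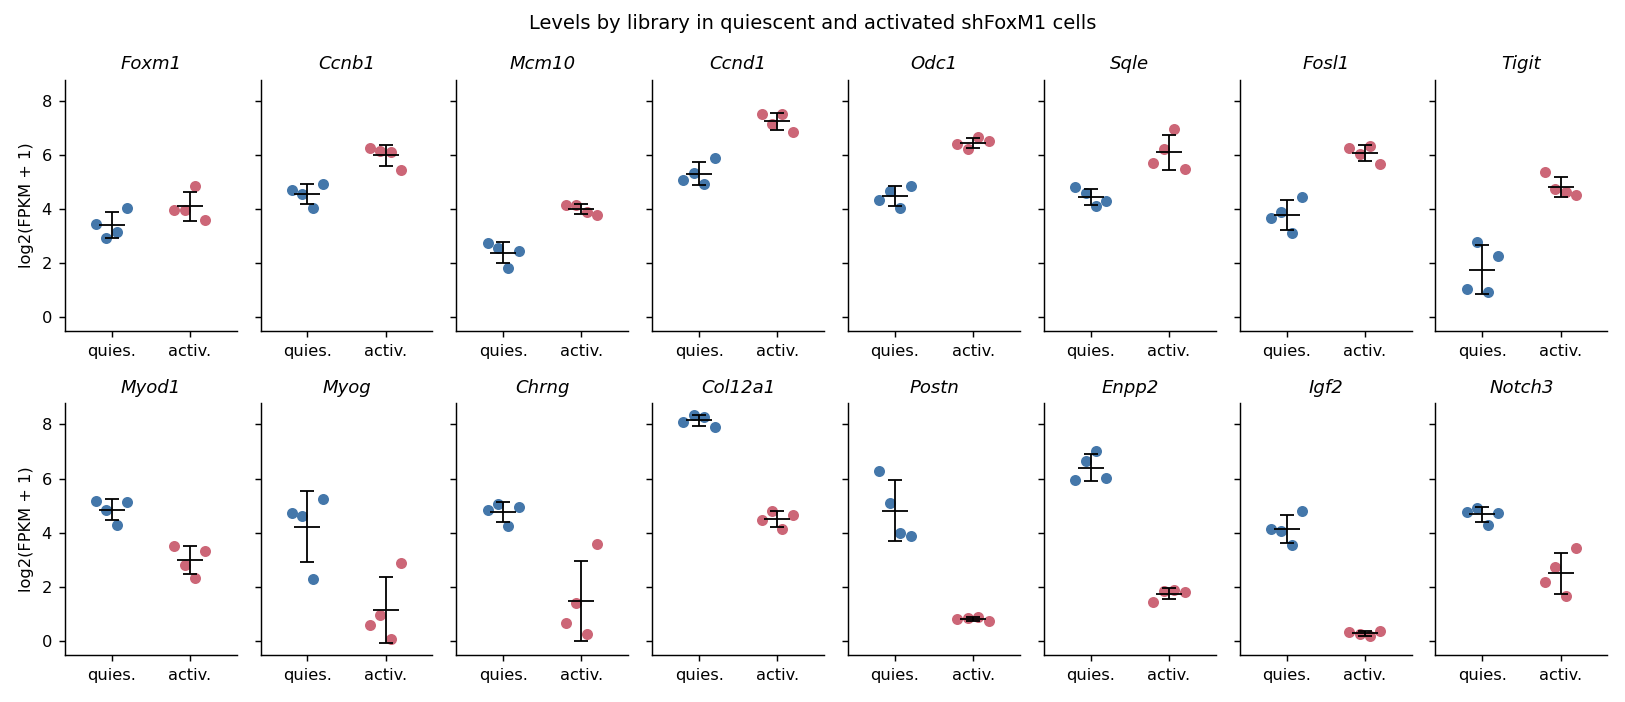
Levels of 16 genes as log2(FPKM + 1) in each of the 4 quiescent and 4 activated shFoxM1 libraries, with means and SD. Foxm1 and Myog overlap between the states, while Ccnd1, Odc1, Fosl1, Col12a1, Postn, Enpp2 and Igf2 do not.

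Growth metabolism rose with the cycle. Odc1, the first enzyme of polyamine synthesis and a Myc target, was at 18.95, 24.3, 15.4 and 28.1 FPKM in quiescent and 84.2, 73.3, 99.3 and 90.3 FPKM in activated libraries (1.98 ± 0.19, adjusted p = 1.95e-04). The groups lay far apart in every library. Srm, the next enzyme of that pathway, rose by 1.36 ± 0.21, and Myc itself by 0.91 ± 0.21. Of 15 members of the Myc network and Myc targets 8 rose and 1 fell, the faller being Mxd4 (-1.24 ± 0.28), which competes with Myc for its partner Max. Of 29 ribosome biogenesis genes 25 rose and 0 fell, with the small nucleolar ribonucleoprotein subunits Nhp2 (1.34 ± 0.16) and Gar1 (1.42 ± 0.19) and the nucleolar proteins Nop56 (1.14 ± 0.17) and Nolc1 (1.22 ± 0.16) among them. The ribosome biogenesis risers were 17 with equal protein-coding sums and 21 to 25 when 1 library was left out. The snoRNA host genes Snhg1 (1.05 ± 0.12) and Snhg15 (1.08 ± 0.14) rose as well.

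Sterol synthesis rose unevenly between activated libraries. Of 30 measured genes of cholesterol and fatty acid synthesis 22 rose and 0 fell, with a median of 1.23. Sqle, the squalene epoxidase, was at 26.9, 23.1, 16.35 and 18.5 FPKM in quiescent and at 51.55, 73.8, 123 and 44.1 FPKM in activated libraries (1.65 ± 0.29, adjusted p = 0.00328). Activated library 3 was the highest and activated library 4 the lowest, and the same order held for the thiolase Acat2 (28.5, 62.2, 84.1 and 24.5 FPKM, against 7.59 to 15.1). Fasn, the fatty acid synthase, rose by 0.87 ± 0.21. The count of risers was 13 without quiescent library 3, 12 without activated library 2 and 12 with equal protein-coding sums, where 1 member was lower.

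Serine and one-carbon enzymes, which feed nucleotide synthesis, were higher too. Phgdh, the first enzyme of serine synthesis, went from 74.3, 106, 73.9 and 140 FPKM to 234, 269, 310 and 417 FPKM (1.65 ± 0.24, adjusted p = 0.00174). All activated libraries exceeded all quiescent ones, and library 4 was the highest within each state. Psat1, the next enzyme, rose by 1.59 ± 0.16, the mitochondrial Mthfd2 by 1.31 ± 0.18 and the asparagine synthetase Asns by 1.50 ± 0.31. Of 30 measured serine, one-carbon and Atf4 target genes 17 rose and 0 fell, and Atf4 itself did not pass (0.59, adjusted p = 0.0973). That count was 11 without quiescent library 3 and 9 with equal protein-coding sums. Of 21 genes of the unfolded protein response 1 rose and 0 fell, under the background share. The direction was not stable, with 4 risers without activated library 4, 3 fallers without quiescent library 4, and 0 risers and 4 fallers with equal protein-coding sums.

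Among 25 Nrf2 and glutathione genes 11 rose and 3 fell. Nqo1, a quinone reductase, rose by 1.53 ± 0.26, and Srxn1, Txnrd1, Gclm and Gsr, enzymes of thiol defence, rose by 1.03 ± 0.14, 0.89 ± 0.13, 0.90 ± 0.13 and 0.89 ± 0.14. Mgst1, a membrane glutathione transferase, fell from 49.9 ± 5.74 to 22.8 ± 1.96 FPKM (-1.09 ± 0.13). Without quiescent library 3 or without activated library 3 the risers were 7, as with equal protein-coding sums, and without quiescent library 3 or activated library 2 the faller count was 1.

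For the proteasome, the respiratory chain and glycolysis the direction was not stable to the scaling. As deposited 17 of 29 proteasome genes rose and 0 fell (median 0.48), 12 of 40 nuclear-encoded respiratory chain genes rose and 1 fell (median 0.14), and 7 of 24 glycolysis genes rose and 3 fell (median 0.21). With equal protein-coding sums the counts were 3 and 2, 1 and 8, and 1 and 4. Without any one of quiescent libraries 1 to 3 or activated libraries 1 to 3, the proteasome risers were 6 to 9, the respiratory chain risers 4 to 7 and the glycolysis risers 2 or 3. Without quiescent library 4 they were 22, 18 and 10, and without activated library 4 they were 19, 7 and 5. The glycolysis fallers were 1 without activated library 1. Psme3, an activator of the proteasome, rose by 0.72 ± 0.13, and Pgk1, a glycolytic kinase, by 0.86 ± 0.15. Pgam2, the muscle form of phosphoglycerate mutase, fell by 1.27 ± 0.32 on the log2 scale.

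**Figure D4:**
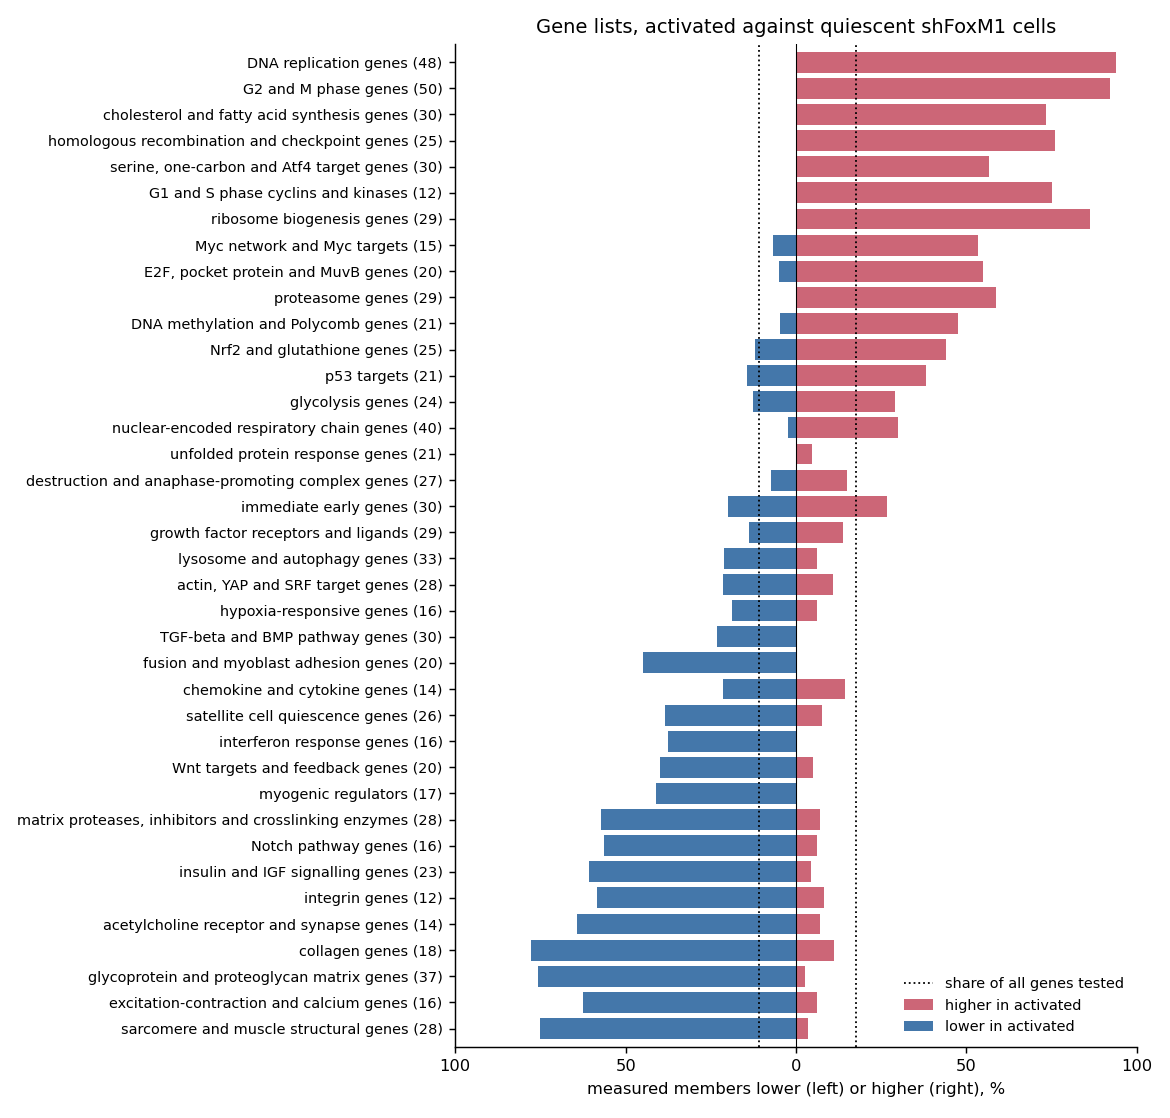
Share of measured members of each list (number in brackets, lists with at least 10 measured members) called higher (right) or lower (left) in activated shFoxM1 cells, ordered by median log2 change. Dotted lines mark the shares over all genes tested, 17.7% higher and 11.0% lower. Replication and mitosis genes lie at the top and sarcomere genes at the bottom.

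Genes of muscle differentiation were expressed in the quiescent cells and lower after activation. Among 17 myogenic regulators 0 rose and 7 fell, against 11.0% of all genes lower, and the faller count was 4 without quiescent library 1, quiescent library 2, activated library 2 or activated library 3. Myod1, the factor that commits cells to muscle, was at 34.7, 27.4, 18.6 and 34.1 FPKM in quiescent and at 10.3, 6.04, 4.04 and 9.07 FPKM in activated libraries (-1.86 ± 0.27, adjusted p = 0.00179). Myf5, the earlier determination factor, overlapped between the states (-0.31 ± 0.35, adjusted p = 0.534, or 0.10 without activated library 3), with 4.02 FPKM in activated library 3 and 14.4 to 15.04 FPKM in the other activated libraries. Myog, which starts terminal differentiation, was at 25.3, 23.8, 3.95 and 37.3 FPKM in quiescent and at 0.52, 0.97, 0.05 and 6.33 FPKM in activated libraries (-3.10 ± 0.69, adjusted p = 0.00899, exact permutation p = 0.0571). Quiescent library 3 was low and activated library 4 high, so the groups overlapped by this pair, and without quiescent library 3 the change was -3.74.

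In the sarcomere list Mylpf and Myh3 showed the same pair of libraries, whereas the quiescent level of Ttn was lowest in library 4. Of 47 listed genes 28 were measured, of which 21 fell and 1 rose, with a median of -2.11. Members such as Myh3 and Ttn passed the filter of 1 FPKM through the quiescent libraries, being below it in most activated ones. Such members could hardly be called higher, so the count and the median partly follow from the filter. Postn, Igf1, Igf2, Nkd2, Itga11 and Ryr1, among members of lists further on, passed the filter in the same way. The faller counts of their lists therefore partly follow from the filter as well. Mylpf, a fast myosin light chain, was at 145, 175, 39.9 and 509 FPKM in quiescent and at 12.4, 6.18, 3.79 and 42.7 FPKM in activated libraries (-3.67 ± 0.78, adjusted p = 0.00728). It was lowest in quiescent library 3 and highest, among activated cells, in library 4, and stood at -4.31 and -4.30 without either of these. Ttn, the giant elastic protein of the sarcomere, fell from 25.5, 42.3, 12.4 and 7 FPKM to 0.57, 0.16, 0.06 and 3.22 FPKM (-3.47 ± 0.55). The embryonic myosin Myh3 fell by 3.10 ± 0.58 on the log2 scale, or 3.75 without quiescent library 3, and the troponins Tnnt1 and Tnnt3 fell too (-3.35 ± 0.48 and -3.14 ± 0.48).

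Of 25 excitation and calcium genes 16 were measured, with 10 lower and 1 higher. The calcium pump Atp2a1 fell by 2.87 ± 0.48 and the calcium release channel Ryr1 fell by 1.71 ± 0.25. Genes of the neuromuscular synapse fell in 9 of 14 measured cases and rose in 1. Chrng, the embryonic gamma subunit of the acetylcholine receptor, was at 27.4, 32.4, 17.98 and 29.6 FPKM in quiescent and at 0.60, 1.62, 0.20 and 11.1 FPKM in activated libraries (-3.29 ± 0.59, or -3.99 without activated library 4). Lrp4, the receptor for agrin, was far steadier, at 25.3 to 27.3 FPKM against 3.36 to 7.77 FPKM (-2.24 ± 0.20, adjusted p = 1.62e-04). Its partner kinase Musk fell by 1.95 ± 0.21.

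Of 20 measured fusion and adhesion genes 9 fell and 0 rose. The fusion proteins Mymk and Mymx fell (-2.57 ± 0.66 and -1.56 ± 0.30), as did the muscle cadherin Cdh15 (-1.84 ± 0.37) and the co-receptor Cdon (-1.45 ± 0.23). For Mymk the groups overlapped, with 5.26 FPKM in quiescent library 3 and 8.76 FPKM in activated library 4 (exact permutation p = 0.0571). In bulk RNA fewer differentiating cells and less of each RNA per cell cannot be told apart.

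Genes of the extracellular matrix were much lower in activated cells, many of them evenly across libraries. Of 22 listed collagen genes 18 were measured, of which 14 fell and 2 rose. Col12a1, a collagen that coats fibrils, was at 272, 322, 309 and 235 FPKM in quiescent and at 21.2, 27.2, 16.6 and 24.2 FPKM in activated libraries (-3.63 ± 0.17, adjusted p = 4.5e-06). The separation was more than 8-fold in each library. Col6a1 and Col6a2, chains of the microfibrils around muscle fibres, fell (-3.22 ± 0.25 and -3.58 ± 0.24), as did the fibrillar Col1a1 and Col3a1 (-1.46 ± 0.27 and -1.43 ± 0.26). Col7a1, of anchoring fibrils, went the other way, from 0.57 to 2.19 FPKM to 2.92 to 5.34 FPKM (1.29 ± 0.25). The basement membrane chains Col4a1 and Col4a2 did not pass (-0.18 and -0.20, both adjusted p = 0.44).

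Of 37 measured glycoprotein and proteoglycan genes 28 fell and 1 rose. Postn, a matricellular protein, was at 75.8, 33.6, 15.02 and 13.7 FPKM in quiescent and at 0.75, 0.81, 0.84 and 0.66 FPKM in activated libraries (-3.99 ± 0.44, adjusted p = 4.58e-04). Its quiescent level ranged over more than 5-fold, yet its activated level was uniform. Fn1, fibronectin, fell from 999.5 ± 226 to 308 ± 159 FPKM (-1.79 ± 0.29). The small proteoglycans Dcn and Ogn (-3.12 ± 0.32 and -3.11 ± 0.45) and Thbs1, a thrombospondin (-2.23 ± 0.28), fell as well. Ecm1 was the member that rose (0.80 ± 0.19). Remodelling enzymes followed, with 16 of 28 lower and 2 higher. Mmp14 and Mmp2, a membrane protease and the gelatinase it activates, fell (-1.36 ± 0.11 and -2.13 ± 0.27), as did the cross-linking enzyme Loxl1 (-1.12 ± 0.16). The protease inhibitor Timp1 and the urokinase receptor Plaur rose by 1.17 ± 0.28 and 0.92 ± 0.24. Summed over 6 markers of fibroblasts and mesenchymal progenitors, the level was 152 to 276 FPKM in quiescent and 237 to 332 FPKM in activated libraries, with Thy1 near 0. Most of that sum was Ly6a, which did not pass (0.47, adjusted p = 0.151). Of the 3 markers measured Cd34 rose, and Pdgfra stood at 4.09 to 10.11 FPKM against 2.53 to 4.32 FPKM and did not pass (-0.63, adjusted p = 0.0854), though it did without quiescent library 4 (-0.80, adjusted p = 0.0245). Dpt, below the filter, was at 0.76 to 1.78 FPKM in quiescent and 0.02 to 0.22 FPKM in activated libraries. The part of such cells in the matrix result was not tested.

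Integrin genes moved in both directions. Itga6, a laminin receptor subunit, rose from 13.0, 19.8, 9.90 and 11.5 FPKM to 59.4, 48.95, 52.96 and 35.3 FPKM (1.81 ± 0.22, adjusted p = 7.87e-04). Of the 12 measured genes of the integrin list, which does not hold the lymphocyte subunit Itgb7 described further on, Itga6 rose and 7 fell. Among those 7 were the collagen receptors Itga10 and Itga11 (-1.82 ± 0.28 and -1.28 ± 0.18), Itgb5 (-1.07 ± 0.15) and the laminin receptor of muscle Itga7 (-0.98 ± 0.19). Of 28 actin, YAP and SRF genes 3 rose and 6 fell as deposited, 10.7% and 21.4%, beside 17.7% and 11.0% of all genes. With equal protein-coding sums 1 rose and 14 fell. As deposited, the risers were 1 without quiescent library 1 or 3 or activated library 1, 2 or 3, and 5 without quiescent library 4. Acta2, smooth muscle actin, was at 1336 to 2313 FPKM in quiescent and 583 to 1159 FPKM in activated libraries (-1.05 ± 0.26), while Myh11, which defines smooth muscle cells, was at or below 0.02 FPKM in all 8.

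Most measured genes of the autocrine IGF system fell. Igf2, the growth factor of differentiating myoblasts, was at 16.6, 15.9, 10.7 and 27.0 FPKM in quiescent and at 0.25, 0.20, 0.13 and 0.30 FPKM in activated libraries (-3.86 ± 0.23, adjusted p = 1.54e-05). The groups were apart by more than 8-fold in every library. H19, the long noncoding RNA expressed from the same imprinted cluster, fell from 1331, 658, 495 and 1443 FPKM to 128, 208, 47.7 and 176 FPKM (-2.85 ± 0.47). Igf1 (-1.75 ± 0.17), Igfbp5, the binding protein of muscle (-1.94 ± 0.45), and Irs1, the docking protein of the receptor (-1.50 ± 0.28), fell. Of 23 measured genes 14 fell and 1 rose, and the fallers were 9 without activated library 1 or activated library 3. Akt1, the kinase downstream, did not pass (0.36, adjusted p = 0.0771).

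Of 29 measured growth factor ligands and receptors 4 rose, all of them ligands, and 4 fell, all of them receptors. Each count is 13.8% of the list, near the 17.7% and 11.0% of all genes, and ligands were not tested against receptors. Areg, a ligand of the EGF receptor, was at 0.63, 1.07, 0.36 and 1.29 FPKM in quiescent and at 5.09, 3.15, 9 and 4.15 FPKM in activated libraries (1.74 ± 0.28, adjusted p = 0.00231). The receptors Egfr (-1.02 ± 0.12), Lifr (-1.83 ± 0.24) and Pdgfrb (-1.52 ± 0.26) fell. Without quiescent library 4 there were 7 fallers, as with equal protein-coding sums, and without activated library 1 there were 2 risers.

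In the Wnt list 8 of 20 measured genes fell and 1 rose, or 14 and 0 with equal protein-coding sums. The feedback inhibitors Axin2 and Nkd2 fell from 4.68 to 6.37 FPKM to 0.56 to 1.47 FPKM (-1.80 ± 0.19) and from 6.21 to 13.1 FPKM to 0.41 to 0.71 FPKM (-2.86 ± 0.22), and the receptor Fzd1 fell by 1.67 ± 0.13. Ctnnb1, the effector beta-catenin, overlapped at 122 to 161 FPKM against 94.7 to 168 FPKM (-0.18 ± 0.18, adjusted p = 0.476), and so did Apc (-0.37 ± 0.35, adjusted p = 0.449), where quiescent library 4 had 7.96 FPKM and the others 22.7 to 28.5 FPKM. Of 27 genes of the destruction and anaphase-promoting complexes 4 rose and 2 fell. These are 14.8% and 7.4% of the list, under the 17.7% and 11.0% of all genes. The mitotic regulators Fbxo5 (1.51 ± 0.29) and Ube2s (1.09 ± 0.18) were among the risers. The fallers of these complexes were 5 without quiescent library 4 and 0 without quiescent library 3 or activated library 1, 2 or 3.

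Of 16 measured Notch genes 9 fell and 1 rose. Notch3, the receptor of resting satellite cells, was at 25.9, 29.4, 18.6 and 25.4 FPKM in quiescent and at 3.59, 5.61, 2.13 and 9.86 FPKM in activated libraries (-2.17 ± 0.33, adjusted p = 0.00193). The ligand Dll1 and the receptor Notch2 fell (-1.89 ± 0.20 and -1.06 ± 0.17), the ligand Jag2 rose by 0.79 ± 0.16, and the target Hes1 did not pass (-0.27 ± 0.22, adjusted p = 0.388). Of 30 measured TGF-beta and BMP genes 0 rose and 7 fell, or 11 without quiescent library 4 and 15 with equal protein-coding sums. The ligands Bmp4, Tgfb2 and Inhbb, an activin subunit, fell (-2.18 ± 0.20, -1.85 ± 0.18 and -2.43 ± 0.30).

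Immediate early genes did not move as a block. Of 30 measured, 8 rose and 6 fell, 26.7% and 20.0%, beside 17.7% and 11.0% of all genes. The fallers were 2 without quiescent library 3 and 3 without quiescent library 1, activated library 1 or activated library 2. Fosl1, a late AP-1 subunit, went from 11.7, 13.98, 7.76 and 20.7 FPKM to 74.5, 63.7, 80.1 and 50.2 FPKM (2.28 ± 0.26, adjusted p = 4.95e-04), whereas Fos was at 0.88 to 2.16 FPKM in quiescent and 0.44 to 0.75 FPKM in activated libraries, with no overlap, and did not pass (-0.56 ± 0.20, adjusted p = 0.0577, exact permutation p = 0.0286, the smallest this design allows). The ERK phosphatases Dusp5 and Dusp6 rose by 1.25 ± 0.30 and 1.03 ± 0.25, and the stress-induced phosphatase Dusp1 fell by 1.12 ± 0.23.

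Of 26 measured satellite cell quiescence genes 10 fell and 2 rose. Without quiescent library 4 the risers were 4. Rgs2, an inhibitor of G protein signalling, fell by 2.59 ± 0.39, as did Spry1, an inhibitor of receptor kinases (-1.64 ± 0.23), and Gas1, a growth arrest gene (-1.42 ± 0.33). Cd34, a surface protein of resting satellite cells, rose instead, from 2.67, 3.00, 4.29 and 10.8 FPKM to 14.8, 16.5, 23.0 and 21.4 FPKM (1.84 ± 0.33, adjusted p = 0.0035). Of 8 measured imprinted growth genes 5 fell and 0 rose. Among 21 DNA methylation and Polycomb genes 10 rose and 1 fell, with Uhrf1 and Dnmt1, which copy methylation after replication, up by 1.53 ± 0.29 and 1.13 ± 0.21, Ezh2 up by 0.86 ± 0.21 and its relative Ezh1 down (-0.79 ± 0.19).

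Of 14 measured chemokine and cytokine genes 2 rose and 3 fell, 14.3% and 21.4%, beside 17.7% and 11.0% of all genes. When 1 library was left out, the risers were 0 to 2 and the fallers 2 to 4. The chemokines Ccl9 and Cxcl12 fell (-1.96 ± 0.16 and -1.35 ± 0.22), as did B2m, the light chain of class I molecules (-0.61 ± 0.12). Of 16 measured interferon response genes 6 fell and 0 rose, a count that was 3 without activated libraries 1, 2 or 3 and 11 with equal protein-coding sums. Of 33 lysosome and autophagy genes 7 fell and 2 rose, 21.2% and 6.1%, the latter under the 17.7% of all genes. The fallers were 11 without quiescent library 4, 2 without activated library 1, 3 without activated library 2 and 13 with equal protein-coding sums. Hexa, a lysosomal hexosaminidase, fell by 0.89 ± 0.15. Of 21 members of the p53 list 8 rose and 3 fell, 38.1% and 14.3%, the latter near the 11.0% of all genes. The list holds p53 targets and Trp53, which encodes p53 itself and was 1 of the risers (0.68 ± 0.21). The death receptors Tnfrsf10b and Fas moved apart (0.92 ± 0.14 and -1.46 ± 0.17). The p53 risers were 5 without quiescent library 1 or quiescent library 3, and the fallers 5 without activated library 4. With equal protein-coding sums 3 members of the p53 list were higher and 4 lower. Of 16 measured hypoxia-responsive genes 1 rose and 3 fell, 6.2% and 18.8%, or 5 fell without quiescent library 4.

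The 12 protein-coding genes with the largest decreases, chosen by size among called genes with at least 5 FPKM in the higher group and no overlap, mixed matrix, muscle and secreted proteins. Enpp2, the secreted enzyme autotaxin that makes lysophosphatidic acid, led them, from 61.3, 99.1, 127 and 63.2 FPKM to 1.75, 2.57, 2.74 and 2.52 FPKM (-4.65 ± 0.23, adjusted p = 4.5e-06). Islr, a secreted protein of mesenchymal cells, fell by 3.86 ± 0.33, and Car3, the carbonic anhydrase of muscle, fell by 3.54 ± 0.30. Outside this rule, the lipoprotein lipase Lpl, an adipocyte marker, fell by 2.46 ± 0.17. Of 7 adipocyte markers 2 were measured, and the other, the transcription factor Pparg, rose (0.98 ± 0.18), from 4.37 to 6.99 FPKM to 8.82 to 13.25 FPKM. The sum of the 7, most of it Lpl in quiescence, was 44.7 to 51.6 FPKM in quiescent and 17.6 to 20.0 FPKM in activated libraries, and 3 of the 7 were at 0 in all 8 libraries.

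The 12 largest increases by the same rule held several genes best known outside muscle. Tigit, an inhibitory receptor of lymphocytes, went from 1.06, 5.93, 0.92 and 3.76 FPKM to 40.1, 25.5, 23.6 and 22.0 FPKM (3.05 ± 0.39, adjusted p = 0.0010). The integrin subunit Itgb7, also of lymphocytes, rose by 2.29 ± 0.39. Of 8 leukocyte markers 2 were measured and both rose, Tigit and the macrophage protein Cd68 (1.28 ± 0.37), which went from 1.16 to 3.05 FPKM to 1.81 to 8.95 FPKM. The call of Cd68 was lost without quiescent library 1 or 2 or activated library 1, 3 or 4 (adjusted p of 0.0611 to 0.0799) and with equal protein-coding sums. Ptprc, Adgre1, Cd3e and Itgam, which define leukocytes, were at or below 0.02 FPKM in all 8 libraries, while the sum of the 8 leukocyte markers, Tigit included, was 2.72 to 7.77 FPKM in quiescent and 27.5 to 49.4 FPKM in activated libraries. The neurofilament subunits Nefl and Nefm rose by 2.53 ± 0.29 and 2.12 ± 0.34 and the neuronal pentraxin Nptx1 by 2.37 ± 0.29, with the neuron marker Rbfox3 at or below 0.02 FPKM. Of 8 neuron and glia markers 2 were measured and both rose, Tubb3 and Nefl, the latter already chosen above by its size. The other 6 had means below 1 FPKM. The sum of the 8, Nefl included, was 2.31 to 7.2 FPKM against 15.4 to 26.3 FPKM. Nefl alone was at 0.20 to 2.02 FPKM in quiescent and 8.72 to 17.2 FPKM in activated libraries. Lgr6, a receptor for R-spondins, rose by 2.43 ± 0.25, and Slc16a11, a transporter, by 2.05 ± 0.23. Lce1g, of the skin envelope, rose by 2.84 ± 0.57, but it has close relatives that could share its reads. Of 7 epithelial markers 2 were measured and 1 rose, with Epcam at 0 in all 8 libraries. The 7 endothelial markers were all below 1 FPKM. The part of other cells in these increases was not tested.

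Of 376 long noncoding RNA genes tested 30 rose and 33 fell, both smaller shares than the 17.7% higher and 11.0% lower of all genes tested. The 6 largest decreases by rule ran from H19 over Mir99ahg, the host transcript of a microRNA cluster and next in size (-1.48 ± 0.32), to Carmn, a noncoding RNA of the muscle lineages and the smallest of the 6 (-1.36 ± 0.25). Rab26os rose by 1.30 ± 0.16, but it lies antisense to another gene, and no label says whether strand was used in counting, so its reads are uncertain.

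The response of shFoxM1 cells was compared with that of shControl cells gene by gene, over all 14 libraries. Of 12432 genes tested, 0 had a response that differed between the hairpins at an adjusted p below 0.05 (limma interaction term, 0.00% called), and 433 did at an unadjusted p below 0.05, which is 3.48%. Without activated shControl library 3 the latter count was 1100, and without quiescent shControl library 2 it was 247. Without quiescent shFoxM1 library 4, the library with no evident loss of Foxm1, 0 genes were called and 589 had an unadjusted p below 0.05. Itga11 had the smallest unadjusted p. It fell from 1.52 ± 0.44 to 0.03 ± 0.02 FPKM in shFoxM1 cells and from 3.98 to 0.03 FPKM in shControl cells, a difference of 0.99 ± 0.22 between the responses (limma adjusted p = 0.993). The tyrosine kinase receptor Axl (0.58 ± 0.17), the laminin chain Lamb1 (1.04 ± 0.27) and Phlda1 (1.03 ± 0.26) also had differences above 0 among the 10 smallest p-values. For Ccnb1, Plk1 and Mcm10 the difference was -0.43 ± 0.41, -0.13 ± 0.44 and -0.25 ± 0.35. Myh3 fell by 3.10 on the log2 scale in shFoxM1 and by 5.21 in shControl cells, a difference of 2.102 ± 1.02 that did not pass (unadjusted p = 0.0569). A p that misses the threshold does not show that the responses are equal.

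**Figure D5:**
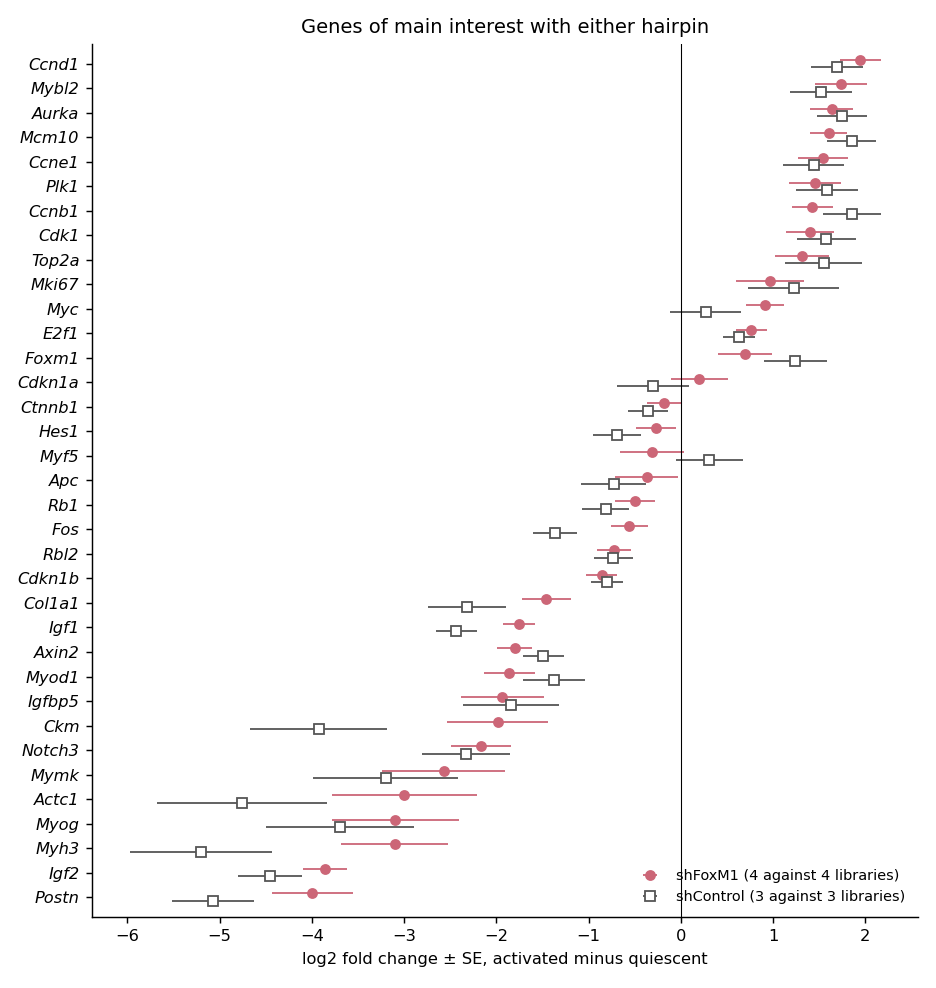
Log2 fold change ± SE on activation for the 35 tested genes of main interest in shFoxM1 cells (filled circles, fit of 8 libraries) and shControl cells (open squares, fit of 14 libraries). Myh3 lies at -3.10 and -5.21, with activated means of 0.35 and 0.43 FPKM, and 0 of the differences passed the test.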

How the data were processed

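RNA sequencing of 14 C2C12 libraries was deposited by the authors as 1 table of FPKM values per gene, from RSEM by the name of the table. Reads were handled with Bowtie 0.12.9, Cufflinks 2.1.1 and HTSeq on mm10, per the submitters' processing notes, which do not say which step used which tool. Of 49585 gene IDs, 49326 matched GENCODE release M21, which gave names, types and positions. FPKM values hold no counts, so no counting intervals are given. Depth was estimated from the steps of low values, of which 94.4 to 95.8% lay within 0.25 read of a whole number. Values were analysed as log2(FPKM + 1) for genes with at least 1 FPKM in 3 of the 8 shFoxM1 libraries, with limma 3.58.1 in R 4.3.3 (empirical Bayes with a trend, Benjamini-Hochberg adjustment over all 12086 genes). The difference between hairpins was the interaction term of a model over 14 libraries. Single genes of main interest also had an exact two-sided permutation test, whose smallest p for 4 against 4 is 0.0286. On simulated data for this comparison (12086 genes, 100 changed per fold) 78.0% of 2-fold and 100.0% of 4-fold changes were recovered with 9 false calls. The simulated noise was independent between genes, and far fewer genes were changed than were called in the data. A shift shared by many genes, as in libraries 4, was not simulated, so these figures may not hold for the real libraries.

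Members, gene lists and tests were chosen with earlier results of these data known. Named by rule were the 12 protein-coding genes most raised and the 12 most lowered (called, at least 5 FPKM in the higher group, no overlap) and 6 long noncoding RNAs each way (at least 1 FPKM); examples within lists were chosen after their values were seen, with preference for calls kept when any 1 library was left out. Same-numbered libraries are not stated to share a culture, and the main test has no block. Promoter sequences are from RefSeq (GRCm38.p6).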

Additional observations from a re-analysis of the deposited data

Results flagged for a closer look

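Of 334 groups of 4 libraries examined, 18 (5.39%) had 1 library whose distance from the others passed Dixon's critical value. The critical value flags about 1 in 20 independent groups by chance. Most groups examined were genes named in the text, which were chosen after their values were seen and share the same libraries. The number of flags can therefore not be judged against that rate. Activated library 4 had 6 of the flags and quiescent library 4 had 4. Activated library 4 was set apart by 1.16 FPKM for Ryr1 (others 0.04 to 0.08), 1.84 FPKM for Ckm (others 0.03 to 0.16), 1.00 FPKM for Fas (others 1.31 to 1.36), 12.49 FPKM for E2f8 (others 22.0 to 23.6), 2.53 FPKM for Pdgfra (others 4.02 to 4.32) and a share of 77.5% of the FPKM sum for 4 short RNAs (others 71.5 to 72.5%). Quiescent library 4 was set apart by 122 FPKM for Ctnnb1 (others 156 to 161), 2.43 FPKM for Mir99ahg (others 8 to 9.51), an estimated depth of 3.61e+07 reads (others 2.64e+07 to 2.79e+07) and 11403 genes at 1 FPKM or more (others 11970 to 12046). Quiescent library 3 stood out at 0.57 FPKM for Actc1 (others 21.8 to 26.8) and 85.8 FPKM for Dusp1 (others 43.6 to 48.5). Activated library 3 stood out at 4.02 FPKM for Myf5 and 115 FPKM for Srm (others 83.8 to 88.3). Quiescent library 1 stood out at 15.3 FPKM for Tgfb2 (others 9.22 to 9.72) and 22.5 FPKM for Srxn1 (others 27.1 to 27.9). Quiescent library 2 had 6.21 FPKM for Nkd2 (others 11.9 to 13.1), and activated library 2 had 25.98 FPKM for Cdkn1b (others 19.5 to 19.8). All these genes but Ctnnb1, Myf5 and Pdgfra were called in the comparison of activated with quiescent cells.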

How the results depend on the processing

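Of the 3466 genes called, counts under other settings ran from 2675 without a filter on low values to 4180 with a GC content and length trend removed, except for 7225 with array weights and 5719 without both libraries 4, an alternative chosen after seeing the data. Leaving out 1 library gave 2158 to 5018. For Foxm1 the log2 change was 0.94 with array weights and 1.07 without both libraries 4, past the threshold in both, and 0.446 to 0.910 when 1 library was left out. Cdkn1a (-0.11 with equal protein-coding sums) and Myf5 (-0.46 to 0.098 when 1 library was left out, above 0 without activated library 3) changed sign, and neither was called as deposited. With the replicate number as a block 3869 genes were called, with 50 of the 50 G2 and M phase genes higher and Mki67 among them (adjusted p = 0.00335). Deviations of same-numbered libraries correlated at 0.40, 0.09, 0.26 and 0.24, and quiescent library 2 correlated best with activated library 1 (0.31), so the numbers were not taken as pairs. The difference between hairpins called 0 genes under every alternative run, with 247 to 1100 at an unadjusted p below 0.05 when 1 library was left out, 1787 with equal FPKM sums and 499 with the block. The causes were not tested. The spread of libraries 4 and the missing read counts limit what small changes can be read.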

Other observations

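Replication-dependent histone genes, a group chosen after its values were seen, were higher in activated shFoxM1 cells. Of 63 tested genes of the Hist1 to Hist4 clusters 56 rose and 0 fell, with called changes of 0.97 to 1.71 on the log2 scale and a median of 1.37 over all 63, beside 17.7% of all genes higher. Their summed level was 28014, 26616, 13233 and 46148 FPKM in quiescent and 79860, 77018, 54713 and 59375 FPKM in activated libraries. The groups did not overlap, with quiescent library 4 the highest of its group. The count was 42 to 57 when 1 library was left out and 53 with equal protein-coding sums. Near-identical copies share reads, so single histone genes are uncertain. The median was 1.88 in shControl cells, and the difference between the hairpins was not tested for this group. Gene by gene, 0 of 12432 responses differed between the hairpins at an adjusted p below 0.05 (limma interaction term).

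Of 13 protein-coding genes of the mitochondrial genome 0 rose and 3 fell, namely mt-Atp6, mt-Co3 and mt-Nd6, with a median of -0.23. Their summed level was 63547, 69318, 89566 and 32848 FPKM in quiescent and 58293, 62005, 52755 and 38761 FPKM in activated libraries, and the groups overlapped through quiescent library 4. The count that fell was 0 to 6 when 1 library was left out.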
